A study of Arabidopsis thaliana with 13 samples.

Results

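A group of 9 genes of the low-oxygen response of Arabidopsis thaliana was followed across shoots with an induced NAC transcription factor and leaves of NAC insertion lines. The members are AT1G33055, AT5G10040, AT4G10270, AT3G10020, AT2G17850, AT3G03270, AT3G23170, AT1G19530 and AT2G15880, and all 9 had 1 probe set annotated to that gene alone, among 13286 genes measured in that way. They were chosen by their control values: empty vector replicates 1 and 2 of the ANAC092 experiment gave much higher signals than empty vector replicate 3. That difference is therefore given as a description, without a test.

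When oxygen is short, plants shift from respiration to fermentation and switch on a compact set of transcripts. The main regulators are ethylene response factors of group VII, which are broken down in air through an oxygen-dependent degradation signal at their N terminus and become stable when oxygen falls. Many of the genes they switch on encode fermentation enzymes, sugar metabolism enzymes and small proteins of unknown function. ANAC092 and ANAC059 are closely related NAC transcription factors, known as promoters of leaf senescence.

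The series set out to find early targets of the 2 factors. Col-0 seedlings 3 weeks old, grown on sucrose medium, carried an estradiol-inducible ANAC092 construct, an estradiol-inducible ANAC059 construct or the empty inducible vector. All of them, controls included, received 10 µM estradiol for 5 h, and whole shoots were taken. A further experiment sampled leaf 11 of 38-day-old soil-grown plants of Col-0 wild type, of 1 T-DNA insertion line of ANAC059 and of 1 T-DNA insertion line of ANAC092. The labels do not say which promoter drives the inducible system or how many independent lines were used.

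Values are log2 signals of Affymetrix arrays, on which a difference of 1 is a doubling, and they were normalized in 3 separate sets. Of these, the ANAC092 set had 6 arrays (3 per group), the ANAC059 set 4 (2 per group) and the leaf set 1 for each of its 3 genotypes. The titles call the arrays biological replicates. The 2 empty vector arrays of the ANAC059 set carry the same replicate numbers as replicates 1 and 2 of the ANAC092 set, and the difference between those replicates correlated at 0.883 between the sets over 22746 probe sets. They were treated as the same hybridisations normalized with different partners, so the ANAC059 set has no counterpart of empty vector replicate 3. Levels were compared within a set only.

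Empty vector replicate 3 stood apart from the other control arrays across the transcriptome. Its signals differed from those of replicates 1 and 2 with an SD of 0.386 and 0.351 over probe sets, against 0.178 between replicates 1 and 2. ANAC092 induced replicate 2 likewise stood apart from replicates 1 and 3 (0.364 and 0.343, against 0.129 between those). Signal at the 3' end of actin minus that at its 5' end, a measure that grows when RNA is degraded or labelled products are short, was 1.96, 2.19 and 2.51 on empty vector replicates 1, 2 and 3. The ANAC092 induced arrays gave 2.47, 2.89 and 2.44 for it. For the ANAC059 set, controls had 2.03 and 2.26 and induced arrays 2.59 and 2.45. This control therefore stood higher on empty vector replicate 3 and on all 5 induced arrays than on empty vector replicates 1 and 2, as the low-oxygen genes stood lower, and its part in the results was not tested. The same measure for GAPDH was 0.509, 0.0655 and -0.140 on the 3 empty vector arrays and 0.129 to 0.254 on the ANAC092 induced arrays, and for ubiquitin 0.758, 0.823 and 0.794 against 0.770 to 0.846, so neither repeated the actin pattern. The 3 measured photosynthesis genes of 20 listed had a log2 summed signal of 12.9, 13.0 and 13.3 on empty vector replicates 1, 2 and 3, and 12.7 to 13.0 on the ANAC092 induced arrays. In the ANAC059 set they summed to 13.0 and 13.1 on the controls and to 13.4 and 13.5 on the induced arrays. Only the rubisco activase gene RCA (AT2G39730) was called higher (0.63 ± 0.10 SE, limma adjusted p = 0.0251). The 9 members were called lower in that comparison. PORB and PRK, the other photosynthesis genes, changed by -0.03 and 0.07 in it. On empty vector replicate 3 RCA stood 0.53 above the mean of replicates 1 and 2, and PORB and PRK 0.04 and 0.05 above it. The 5 measured root genes of 12 listed summed to 8.83, 8.65 and 8.54 on the 3 empty vector arrays and to 8.47 to 8.87 on the ANAC092 induced arrays, and in the ANAC059 set to 8.53 to 8.72 on the controls and 8.59 to 8.70 on the induced arrays. Singly, the 5 root genes read 5.64 to 7.20 on the arrays of the ANAC092 set, where the lower quartile of probe set means was 6.15. The part of the photosynthesis and root genes in the results was not tested. Under the annotation used, 0 probe sets were assigned to ANAC092 alone and 0 to ANAC059 alone, so the labels were not checked against the induced or disrupted gene.

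Among the control arrays the drop from replicates 1 and 2 to replicate 3 was largest for AT4G10270 and smallest for AT1G19530. AT4G10270 is annotated in Arabidopsis as a member of a wound-responsive protein family. Its signal was 12.212 and 12.005 on empty vector replicates 1 and 2 and 9.94 on replicate 3, a difference of -2.17 from the mean of the other 2, or 4.49-fold. AT1G19530 read 8.16 and 8.53 on replicates 1 and 2 and 7.41 on replicate 3 (-0.94, 1.91-fold). The median difference of the 9 genes was -1.17, against -0.01 over all probe sets. The gap between replicate 3 and the nearer of the other 2 controls was at least 0.75 in every member, a gap that 2.97% of all probe sets reached. The choice of genes used this contrast, so nothing is read from that comparison.

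**Figure D1:**
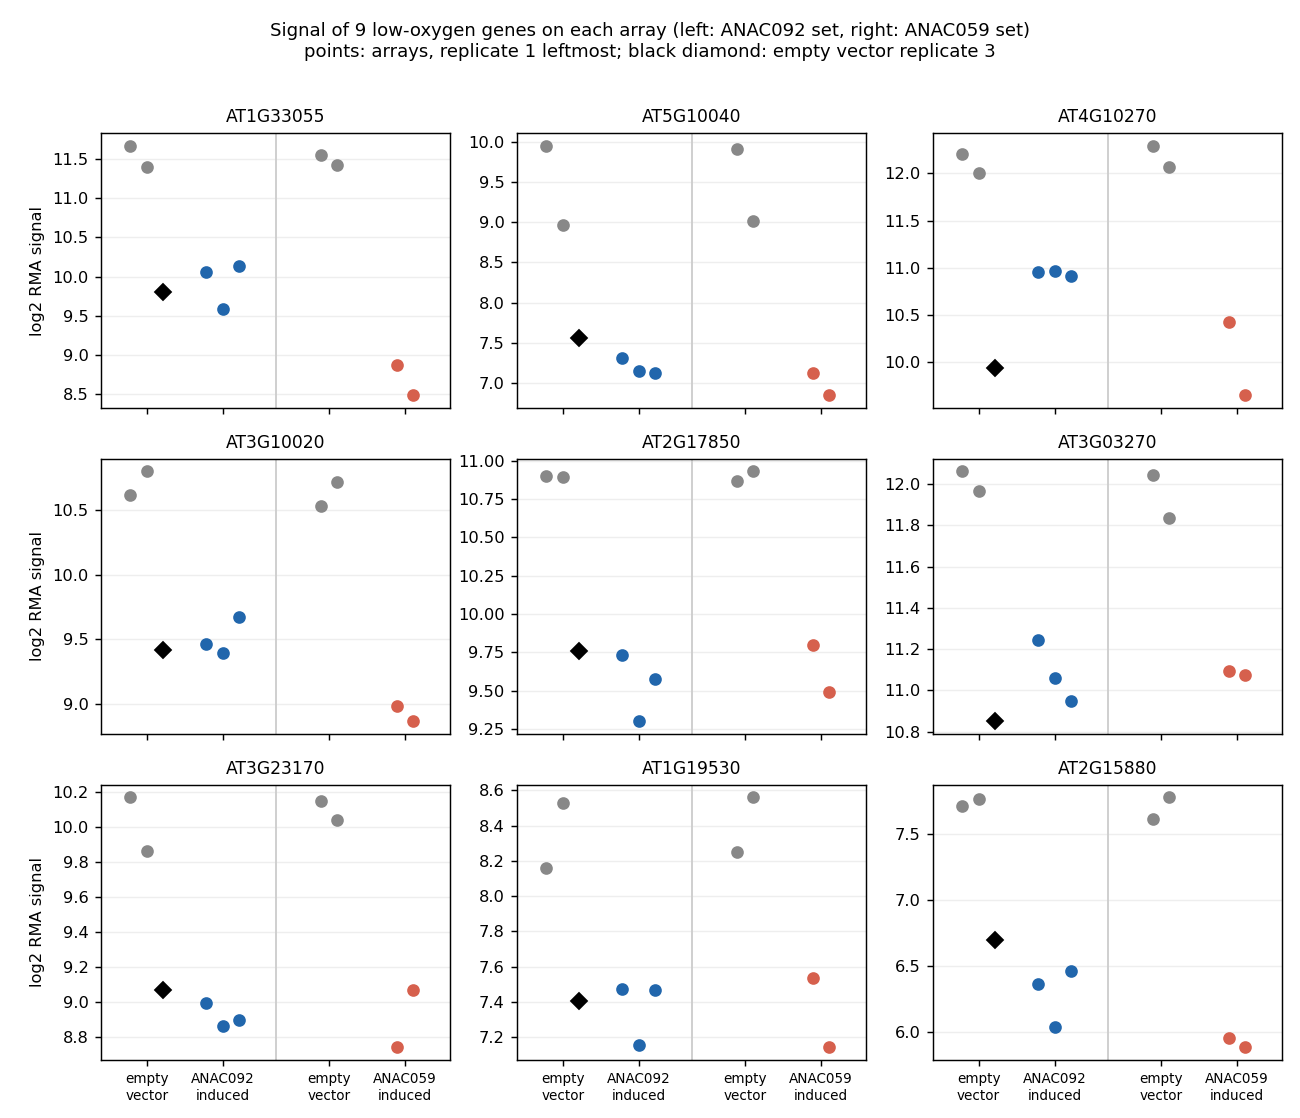
Log2 RMA signal (vertical axis) of each of the 9 genes on every array of the ANAC092 set (left of the grey line) and the ANAC059 set (right), each point being 1 array. In all 9 panels the black diamond, empty vector replicate 3, lies below the grey points of replicates 1 and 2, and for AT4G10270 the blue ANAC092 induced arrays lie about midway between them.

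The first group of members encodes proteins whose function is not known. AT1G33055 had signals of 11.67, 11.40 and 9.81 on empty vector replicates 1, 2 and 3, and of 10.06, 9.59 and 10.13 on ANAC092 induced replicates 1, 2 and 3. The induced arrays thus lay on both sides of empty vector replicate 3 and well below the other 2 controls. In the ANAC059 set it read 11.56 and 11.42 on the empty vector arrays and 8.87 and 8.48 on the induced arrays, which makes it the member furthest below its controls there.

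AT5G10040 varied most between the 2 high controls. It read 9.95, 8.96 and 7.56 on the 3 empty vector arrays of the ANAC092 set and 7.31, 7.15 and 7.13 on the induced arrays. The induced arrays were below every control, by 0.25 to 0.43 from replicate 3 and by more than 2 from the mean of replicates 1 and 2. Replicates 1 and 2 themselves differed by 0.99, whereas this difference was at most 0.37 in size in the other 8 genes. The ANAC059 set gave 9.91 and 9.02 on the controls and 7.13 and 6.85 on the induced arrays, without overlap.

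AT3G10020 read 10.62, 10.80 and 9.42 on the empty vector arrays of the ANAC092 set and 9.46, 9.40 and 9.67 on the induced arrays. Its induced arrays straddled replicate 3, the nearest of them lying within 0.05 of it. Its controls of the ANAC059 set read 10.53 and 10.71, and the induced arrays 8.98 and 8.87. The groups were separated by more than 1.5 there.

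AT3G23170 read 10.17, 9.86 and 9.07 on the empty vector arrays of the ANAC092 set and 8.995, 8.860 and 8.895 on the induced arrays. All 3 induced arrays were below replicate 3, by 0.07 to 0.21. Controls of the ANAC059 set read 10.15 and 10.04 and the induced arrays 8.74 and 9.07, the only member whose induced replicate 2 was the higher of the pair. In the other 8 members ANAC059 induced replicate 2 was the lower, as it was in 10055 of all 22746 probe sets.

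AT4G10270 was the member whose induced arrays lay furthest above empty vector replicate 3. Against its controls of 12.212, 12.005 and 9.940, the ANAC092 induced arrays read 10.95, 10.96 and 10.91. They were therefore about midway, 0.97 to 1.02 above replicate 3 and at -1.14 to -1.20 from the mean of the other 2 controls, and they agreed among themselves to within 0.05. The ANAC059 set gave 12.30 and 12.07 on the controls and 10.43 and 9.64 on the induced arrays, more apart from each other than in any other member.

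AT3G03270 encodes a member of the universal stress protein family, small cytosolic proteins found from bacteria to plants. It read 12.06, 11.97 and 10.85 on the empty vector arrays of the ANAC092 set and 11.24, 11.06 and 10.95 on the induced arrays, all 3 of them above replicate 3. Its values in the ANAC059 set were 12.04 and 11.84 on the controls and 11.09 and 11.08 on the induced arrays, a near-identical pair. It had the smallest difference of the 9 after ANAC059 induction.

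AT2G17850 encodes a rhodanese-like protein, of a fold that transfers sulfur between small molecules. Its signals were 10.90, 10.89 and 9.76 on the 3 empty vector arrays of the ANAC092 set and 9.73, 9.30 and 9.58 on the induced arrays. The induced arrays were below all controls, but replicate 1 by only 0.03 from empty vector replicate 3. The controls of the ANAC059 set read 10.87 and 10.93 and the induced arrays 9.80 and 9.49.

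AT1G19530 read 8.16, 8.53 and 7.41 on the empty vector arrays of the ANAC092 set and 7.48, 7.15 and 7.47 on the induced arrays, on both sides of replicate 3. Its ANAC059 set controls read 8.25 and 8.56 and the induced arrays 7.54 and 7.14. AT2G15880 encodes a protein of the leucine-rich repeat extensin family, whose members bind to the cell wall. It read 7.71, 7.76 and 6.70 on the empty vector arrays of the ANAC092 set and 6.36, 6.04 and 6.46 on the induced arrays. All 3 induced arrays were below replicate 3, by 0.24 to 0.66. AT2G15880 read 7.61 and 7.78 on the controls of the ANAC059 set and 5.95 and 5.88 on the induced arrays, without overlap.

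How far these readings bear a change with ANAC092 depends on which control array is taken. All 3 induced arrays were below both empty vector replicates 1 and 2 in 9 of 9 genes (21.8% of all probe sets), and below all 3 controls in 4 of 9 (12.4% of all probe sets): AT5G10040, AT2G17850, AT3G23170 and AT2G15880. Relative to replicate 3 alone, all induced arrays were lower in these 4 genes (41% of all probe sets). They were all higher in 2, AT4G10270 and AT3G03270 (23.3%), and lay on both sides in 3, AT1G33055, AT3G10020 and AT1G19530 (35.7%). The genes were chosen for high replicates 1 and 2 and a low replicate 3, which bears on all of these counts. Nothing is read from them beside the shares of all probe sets.

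Limma fitted over all probe sets gave the same picture. Its p-values are shown only to say what can be claimed, because the control arrays of the fit are those by which the genes were picked. With all 3 controls 0 of 9 members passed an adjusted p of 0.05, in either direction, where 2.23% of all probe sets did (0.831% as lower). Their adjusted p ranged from 0.129 to 0.806, and 5 of 9 had an unadjusted p under 0.05 (12% of all probe sets). The estimates ran from -0.44 ± 0.54 SE for AT4G10270 to -1.63 ± 0.52 SE for AT5G10040, with a median of -0.78 against -0.03 over all probe sets. In 5 of the 6 fits that left out 1 array, again 0 of 9 passed.

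Without empty vector replicate 3, 9 of 9 were called lower (1.29% of all probe sets), at changes of -0.93 to -2.27, with a median of -1.20 and adjusted p of 0.00616 to 0.0381. The controls left in that fit are the arrays whose high values chose the genes, so nothing is read from that number beside the share. With replicate 3 as the only control, 0 of 9 were called lower (0.198% of all probe sets) and 1 of 9 higher (2.87%). The member called higher was AT4G10270, which then stood 1.00 ± 0.10 SE above the control (adjusted p = 0.0301). AT5G10040, the member with the largest difference in the fit of all arrays, stood at -0.36 ± 0.13 SE (adjusted p = 0.237), and the median of the 9 was -0.04. In that fit the lone control was assumed to vary like the induced arrays. Its low values were part of the choice of genes, with the largest drop in AT4G10270 (-2.17), so nothing is read from the call as higher. Averaging induced replicates 1 and 3, which were much alike, left 0 of 9 called (adjusted p 0.273 to 0.852).

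**Figure D2:**
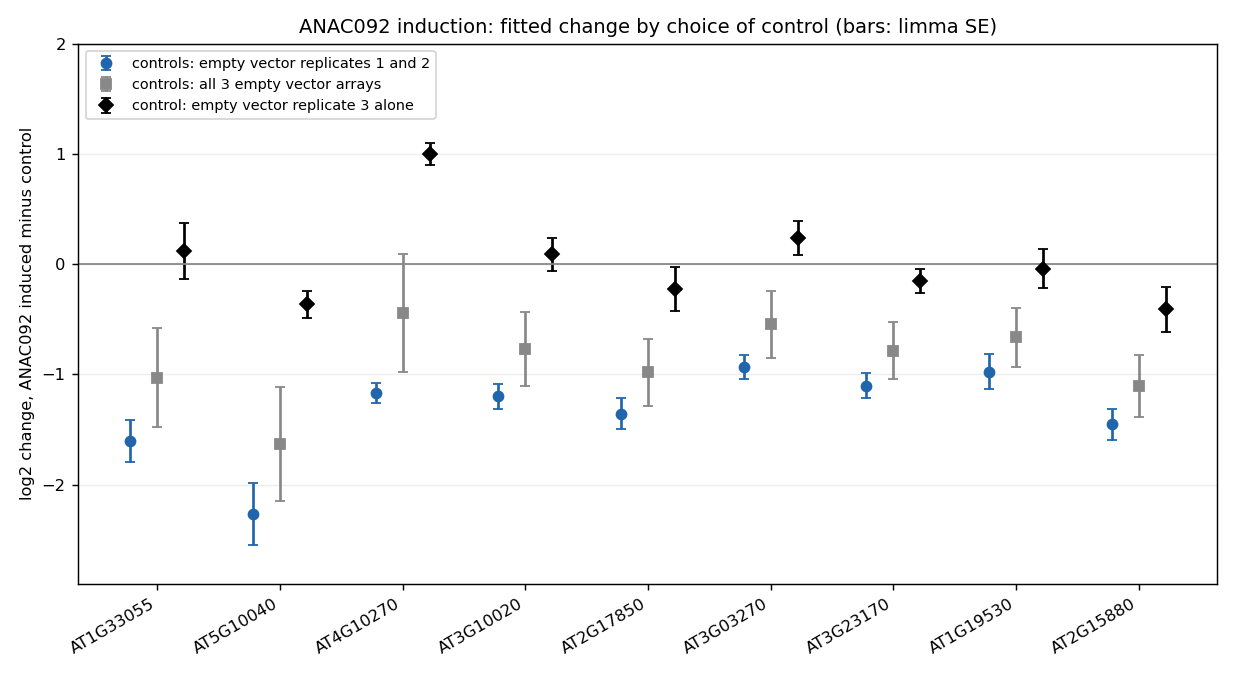
Fitted log2 change of each gene, ANAC092 induced minus control (vertical axis), with limma's standard error, for 3 choices of control array. The blue points, with replicates 1 and 2 as controls, lie between -0.93 and -2.27, and the black points, with replicate 3 alone, between -0.41 and 1.00.

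The spread among the ANAC092 induced arrays, which the choice of genes did not use, was small beside the spread among the controls. The SD over the 3 induced arrays was 0.03 for AT4G10270, 0.07 for AT3G23170 and 0.10 for AT5G10040, and at most 0.29, for AT1G33055. Its median over the 9 genes was 0.149, against 0.121 over all probe sets. Induced replicate 2 was the lowest of the 3 in 6 of 9 genes, and in 11256 of all 22746 probe sets. The SD over the 3 empty vector arrays was 0.57 to 1.26, with a median of 0.675 against 0.149 over all probe sets. The latter values follow from how the genes were chosen.

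After ANAC059 induction all 9 genes fell against the only controls of that set, empty vector replicates 1 and 2. Limma called 9 of 9 lower (1.34% of all probe sets), with a median change of -1.70 against -0.01 over all probe sets, and both induced arrays were below both controls in each (26.8% of all probe sets). These controls are the arrays whose high values chose the genes, so the calls and p-values say only what can be claimed against them, and nothing is read from their number beside the share of all probe sets. AT1G33055 fell 7.02-fold (log2 -2.81 ± 0.14 SE, n = 2 per group, limma adjusted p = 0.00127) and AT5G10040 5.57-fold (-2.48 ± 0.27 SE, adjusted p = 0.00860). AT4G10270 fell 4.44-fold, AT2G15880 3.43-fold and AT3G10020 3.24-fold. AT2G17850, AT3G23170 and AT1G19530 changed by -1.26, -1.19 and -1.07. AT3G03270 changed least, by -0.86 ± 0.10 SE (adjusted p = 0.0104).

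The calls held in all 4 fits that left out 1 array for AT1G33055, AT5G10040, AT3G10020, AT2G17850 and AT2G15880. Without empty vector replicate 1 only those 5 passed, and AT4G10270, AT3G03270, AT3G23170 and AT1G19530 had adjusted p of 0.0646, 0.0624, 0.0620 and 0.0640. Without empty vector replicate 2, 8 of 9 passed and AT1G19530 did not (adjusted p = 0.0847). Such fits leave 1 group with a single array, whose spread is taken from the remaining group.

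The controls behind these falls are the arrays on which the 9 genes were high. Each induced array of either set can be placed by its difference from empty vector replicates 1 and 2 of its own set, beside the difference of empty vector replicate 3 in the ANAC092 set. These differences come from separate normalizations and were not tested against each other. For scale, replicate 2 minus replicate 1 of the shared arrays disagreed between the sets by up to 0.198 in these genes, with a median of 0.1004.

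AT1G33055 was at -2.62 and -3.01 on the ANAC059 induced arrays, against -1.73 on empty vector replicate 3 and -1.40 to -1.94 on the ANAC092 induced arrays. AT2G15880 was at -1.74 and -1.81, against -1.04 on replicate 3. AT5G10040 was at -2.34 and -2.62, against -1.90 on replicate 3. For these 3 genes the difference of replicate 3 was subtracted from the mean difference of the ANAC059 induced arrays. The results were -1.08, -0.74 and -0.58. The disagreement between the sets given above comes from normalizations of the same arrays and holds no difference between plants. It therefore does not show whether 1 further control array could differ as much. AT3G10020 was at -1.64 and -1.76, against -1.29, and AT3G23170 at -1.36 and -1.03, against -0.95. Those 2 genes were also further down on both arrays, and the same subtraction gave -0.40 and -0.24. For AT3G23170 the nearer array, -1.03 against -0.95, was closer to replicate 3 than the 0.198 by which the sets disagreed at most.

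In the other 4 genes ANAC059 induced arrays reached no further than the control array without either construct, or not on both arrays. AT4G10270 was at -1.76 and -2.54 against -2.17 on replicate 3. AT2G17850 was at -1.10 and -1.41 against -1.13, and AT1G19530 at -0.87 and -1.26 against -0.94. AT3G03270, at -0.85 and -0.87, was less far below replicates 1 and 2 than replicate 3 was, at -1.17. By this measure both ANAC059 induced arrays lay further down than replicate 3 in 5 of the 9 genes (45.6% of all probe sets), in AT3G23170 only narrowly. They lay on both sides in 3 (23.1%) and less far down in 1 (31.2%). The low replicate 3 was part of the choice, so nothing is read from these counts beside the shares. A fall with ANAC059 is therefore called against replicates 1 and 2 in all 9 genes, and in none of them could it be tested against replicate 3. Whole shoots were profiled, so fewer cells of a type and less RNA per cell cannot be told apart.

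**Figure D3:**
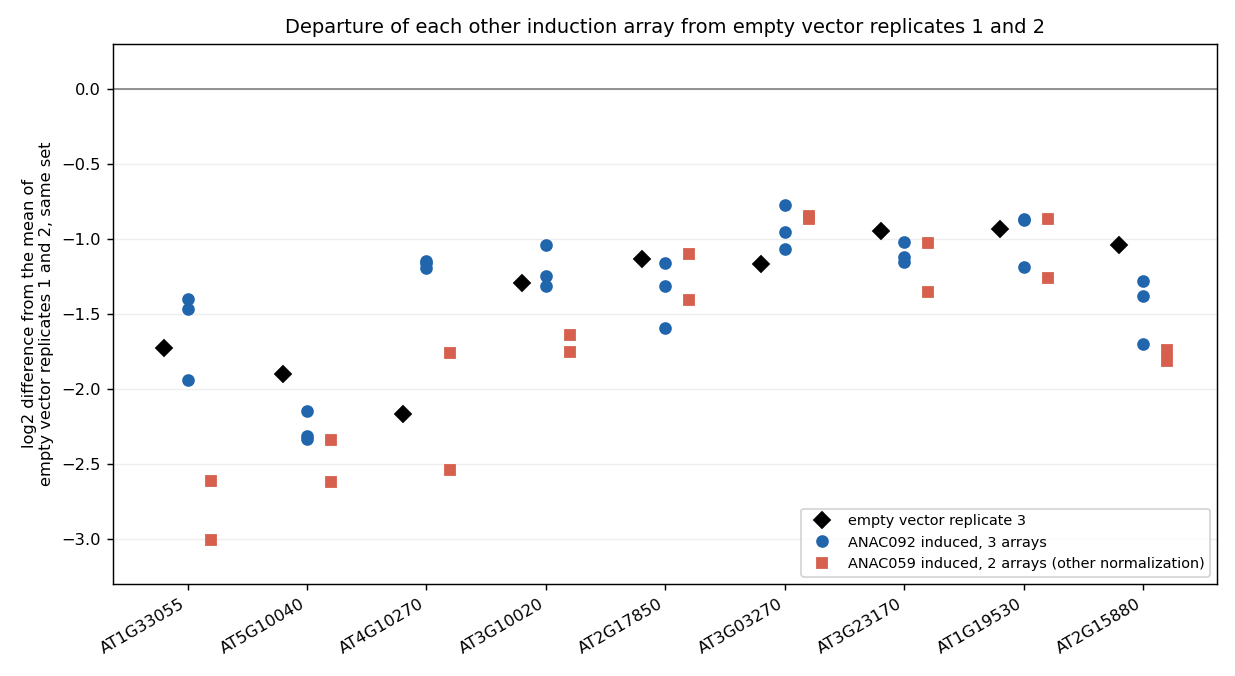
Log2 difference of each array from the mean of empty vector replicates 1 and 2 of its own set (vertical axis), for empty vector replicate 3 (black), the ANAC092 induced arrays (blue) and the ANAC059 induced arrays (red, normalized separately). AT1G33055 and AT2G15880 show the ANAC059 induced arrays well below the black diamond, whereas AT4G10270 shows the ANAC092 induced arrays 0.97 to 1.02 above it.

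In leaf 11 of older plants the members were read on 1 array of each genotype. No difference from wild type reached 1 on the log2 scale in either insertion line. Over all probe sets 5.26% did in the ANAC059 line and 1.8% in the ANAC092 line, so the members are too few for that count to set them apart. AT3G10020 differed most, with 9.68 in wild type, 10.51 in the ANAC059 line and 10.48 in the ANAC092 line. The 2 lines were thus 0.83 and 0.81 above wild type, and 7.55% and 3.27% of all probe sets differed by at least as much in either direction. After ANAC059 induction AT3G10020 was called lower against empty vector replicates 1 and 2, on which it was chosen to be high. After ANAC092 induction it stood at -1.20 from replicates 1 and 2, and was not called with replicate 3 included. The leaf differences have no replicate check.

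AT3G03270 read 6.93 in wild type, 6.84 in the ANAC059 line and 7.47 in the ANAC092 line, which was 0.54 above wild type. AT4G10270 read 6.75, 6.47 and 6.98 in the same order, so that the lines lay on either side of wild type. AT2G15880 read 4.94, 5.13 and 5.25, AT2G17850 5.04, 4.81 and 5.02, and AT5G10040 3.93, 3.82 and 3.85. The differences of these 4 genes were at most 0.31 in size. AT1G33055 read 5.11 on all 3 arrays.

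AT3G23170 at 7.65 and AT1G19530 at 3.49 had exactly the same deposited value on the 3 leaf arrays. So did 14.7% of all probe sets, and an identical summarised value does not show that the transcript levels were equal. AT5G10040 and AT1G19530 were below 4.51, the lower quartile of the probe set means in the leaf set. The median leaf difference of the 9 genes was 0.00 in both lines, as it was over all probe sets.

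**Figure D4:**
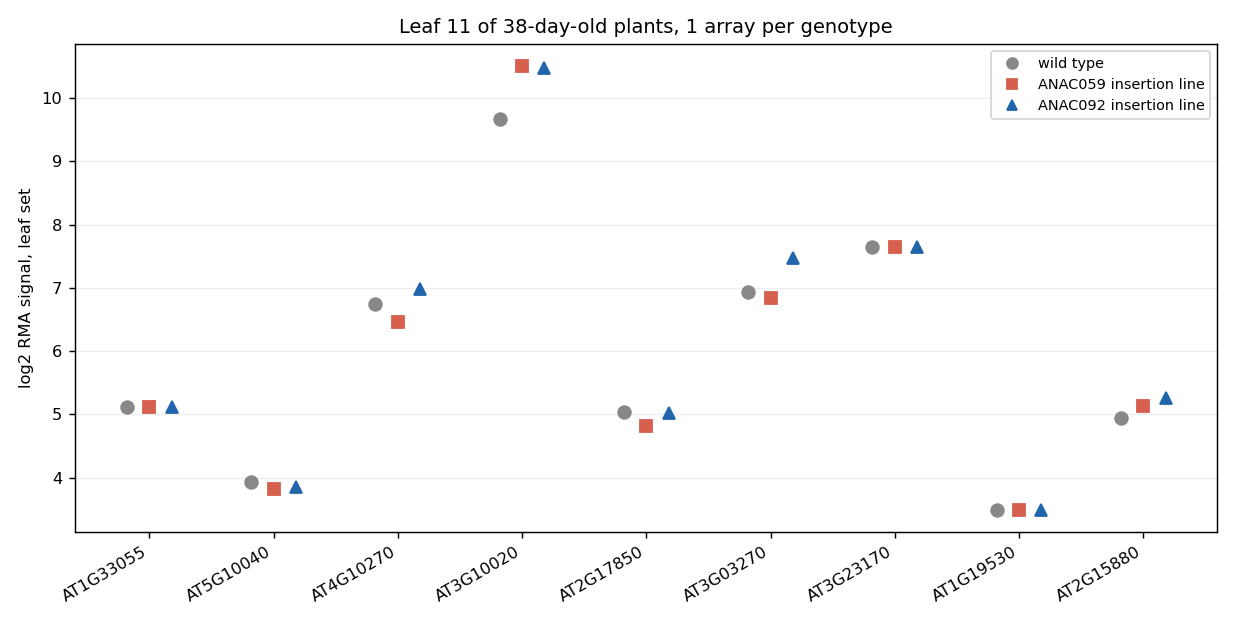
Log2 RMA signal (vertical axis) of each gene in leaf 11 of wild type and of the ANAC059 and ANAC092 insertion lines, 1 array per genotype. AT3G10020 is the gene in which both lines stand apart from wild type, by 0.83 and 0.81, and levels are not comparable between genes.

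Other genes of the low-oxygen response were read from a list of 52 genes assembled from general knowledge, of which 28 had a probe set of their own, the 9 members among them. The gap that marks the members was not limited to them. At least the smallest member gap was found in 5 of the other 19 genes (2.97% of all probe sets). These were AT5G66985, AT4G39675, AT1G05575, AT4G33560 and CML38. AT5G66985 had a difference of -2.13 between empty vector replicate 3 and replicates 1 and 2, with 11.31, 10.66 and 8.85 on the 3 controls and 9.10, 8.55 and 8.91 on the ANAC092 induced arrays. The calcium sensor gene CML38 (AT1G76650) read 11.87, 11.58 and 10.56 on the controls and 10.38, 10.20 and 9.95 on the induced arrays.

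AT4G39675 and AT1G05575 differed from replicate 3 in the other direction. AT4G39675 read 6.98 on replicate 3 and 8.79, 7.95 and 8.34 on the induced arrays. AT1G05575 read 7.47 on replicate 3 and 8.73, 8.24 and 8.61 on the induced arrays. All 3 induced arrays were above replicate 3 in both, in the members AT4G10270 and AT3G03270, and in a further 2 of the other genes, AT5G42200 (8.74 on replicate 3 and 9.26, 9.38 and 9.22 on the induced arrays) and AT4G33560 (9.53 against 9.77, 9.83 and 9.60). With replicate 3 as the only control AT4G39675, AT1G05575, AT5G42200 and AT4G33560 did not pass (adjusted p 0.154, 0.116, 0.120 and 0.519).

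Another 5 low-oxygen genes were listed as low on the ANAC092 induced arrays against every control. They were AT3G10040, which the gene table lists as HRA1, a repressor that damps the low-oxygen response, and AT3G27220, AT5G26200, AT1G26270 and AT1G74940. This trait was not particular to them. In 9 of the remaining 14 measured genes all 3 induced arrays were also below all 3 controls (12.4% of all probe sets). In the 5 listed genes the median difference of replicate 3 from replicates 1 and 2 was -0.01, against -1.17 in the 9 members. Limma called 5 of these 5 lower with all 3 controls and 3 of 5 with replicate 3 alone. They were listed because they were low against every control, so these counts follow from the choice and are no result beside those of the members. HRA1 shows it most clearly, with 10.44, 10.27 and 10.43 on the 3 controls and 8.85, 8.67 and 8.65 on the induced arrays.

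Of the remaining 14 measured genes, ANAC092 induction with all 3 controls called 1 lower (0.831% of all probe sets). This was the pyruvate decarboxylase gene PDC2 (AT5G54960), a fermentation gene. PDC2 read 12.24, 12.28 and 12.53 on the controls and 11.72, 11.62 and 11.65 on the induced arrays, a change of -0.69 (adjusted p = 0.0232) that was -0.86 against replicate 3 alone (adjusted p = 0.0425). It was the gene of the 14 with replicate 3 highest relative to the other controls, by 0.26. AT1G72940, AT5G45960 and AT5G44730 had the smallest differences between the controls (-0.09, -0.10 and -0.25) and none of them was called in either induction. With ANAC092 they changed by -0.66, -0.27 and -0.46 (limma adjusted p = 0.0531, 0.518 and 0.173). With ANAC059 they changed by -0.23, -0.01 and -0.67 (limma adjusted p = 0.283, 0.977 and 0.0534). AT1G72940 in the first and AT5G44730 in the second thus lay just over the threshold.

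ANAC059 induction called 6 of those 14 lower (1.34% of all probe sets) and 0 higher. They were AT5G66985 (-2.001), AT5G42200 (-1.73), AT4G27450 (-1.53), AT4G33560 (-1.49), CML38 (-1.27) and AT4G24110 (-0.56). Of these 6, AT4G24110 had the smallest difference between the controls, with replicate 3 at -0.41. The median change of the 14 was -0.65, against -1.70 in the 9 members. The members were chosen for high values on these controls, so nothing is read from that contrast. PDC2 was at -0.34 (adjusted p = 0.101) and was not called.

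**Figure D5:**
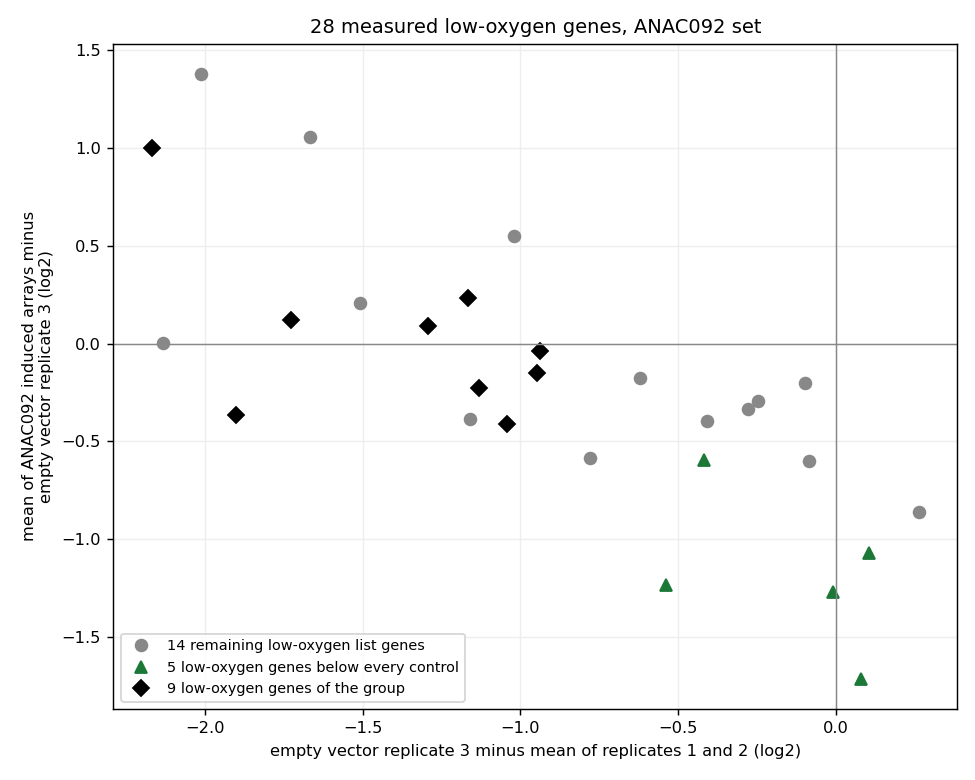
Each point is 1 of 28 low-oxygen genes, placed by the log2 difference of empty vector replicate 3 from replicates 1 and 2 (horizontal axis) and of the mean ANAC092 induced array from replicate 3 (vertical axis). The 9 members (black) lie left of -0.93 and, apart from AT4G10270 at 1.00, between -0.41 and 0.23; replicate 3 enters both axes, so a slope is built in.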

How the data were processed

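The deposited values are log2 signals that the authors made with RMA, per the labels' descriptions and the submitters' processing notes, on 3 sets of arrays normalized separately. The software version and the build behind the array design are not given in the sources used here. Of 22810 probe sets, 64 controls were left out of tests and 22746 were tested. The platform annotation gave 13513 of them 1 gene, 503 several and 8730 none, and 13436 of the first matched a locus of the TAIR10.1 gene table, used for names only.

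Within each induction set, a two-sided limma 3.58.1 model (R 4.3.3, lmFit then eBayes, with a term for group alone) was fitted to all tested probe sets, with Benjamini-Hochberg adjustment and a threshold of 0.05. It was checked on simulated data. SE is limma's moderated standard error. The leaf arrays and the differences among empty vector arrays were not tested. The number of arrays limits the precision, and no detection calls were used.

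The 9 genes and all lists were chosen with earlier results of these data known. Other low-oxygen genes named are 5 listed as low against every control. Of the remaining 14, those called in either induction are named. Also named are the 3 with the largest and the 3 with the smallest difference of empty vector replicate 3 from replicates 1 and 2. AT4G33560, CML38 and AT5G66985 are named for their gap as well. Alternatives were leaving out each array, replicate 3 as the only control, induced replicates 1 and 3 averaged, the replicate number as a block, quantile normalization or median centring, removal of probe sets below the lower quartile, and a trended, robust eBayes. Promoter and protein sequences were not used here.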

Additional observations from a re-analysis of the deposited data

How the results depend on the processing

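In the ANAC092 comparison the count of 0 called members held in 11 of 14 settings including the reported one, and rose to 9 without empty vector replicate 3, to 1 (AT4G10270, higher) with replicate 3 as the only control and to 1 (AT5G10040) with the replicate block. Over the fits leaving out 1 array it ranged from 0 to 9. With replicate 3 alone the changes of AT1G33055, AT4G10270, AT3G10020 and AT3G03270 reversed, to 0.12, 1.00, 0.092 and 0.23. That change is the induced mean minus replicate 3, whose low values were part of the choice of genes. Why replicate 3 was low was not tested. The number of probe sets called, 507, was 242 with induced replicates 1 and 3 averaged and 209 to 787 over the fits leaving out 1 array.

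In the ANAC059 comparison the 9 called members became 5 to 9 over such fits, and the 679 probe sets 161 to 444. With the replicate block 0 members and 0 probe sets were called by limma, although 9 members and 4131 probe sets had an unadjusted p under 0.05 and the members' adjusted p was 0.0501 to 0.147; this fit has fewer residual degrees of freedom. Whether the replicate numbers pair the samples cannot be settled from so few arrays. In the ANAC092 set deviations of same-numbered arrays correlated at -0.107, 0.271 and 0.0968, and those of differently numbered arrays at -0.244 to 0.202. In the ANAC059 set same-numbered arrays correlated at 0.0281. The normalization, dim probe set and eBayes alternatives left 0 and 9 called members.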

Other observations

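Outside the low-oxygen list, the genes most like the 9 members were sought over the 6 arrays of the ANAC092 set. The measure was the root-mean-square difference between a gene's log2 values, centred on their mean, and the mean centred profile of the members, over 13408 single-gene probe sets. The nearest were CCL (AT3G26740) at 0.125, AT3G62550 at 0.133, AT3G15630 at 0.137, AT1G10140 at 0.170 and AT1G56220 at 0.182. The members themselves ranged from 0.116 to 0.485. CCL read 11.15, 11.11 and 9.59 on empty vector replicates 1, 2 and 3 and 10.08, 9.64 and 9.98 on the ANAC092 induced arrays. Replicate 3 was the lowest of the 6 arrays for CCL, a gene outside the low-oxygen list used here. CCL was picked for its likeness to the members on these arrays, so nothing is read from that.

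After ANAC092 induction limma gave these 5 adjusted p of 0.196 to 0.586, which follows from the arrays by which they were chosen. Against empty vector replicates 1 and 2, on which they were also chosen to be high, all 5 were called lower after ANAC059 induction (1.34% of all probe sets). Their log2 changes were -1.01, -1.07, -1.69, -2.14 and -0.90 in the order above. AT3G15450, the 1 measured gene of 12 on a list of sugar starvation and darkness genes, read 11.71, 11.47 and 10.52 on the 3 controls of the ANAC092 set and 9.52, 9.58 and 10.46 on the induced arrays. The 1 measured clock gene of 12, GI, was 0.29 higher on replicate 3 than on replicates 1 and 2. The 3 measured rapid touch and wound genes of 14 had a median difference there of 0.18. The departure of replicate 3 was therefore not the same in sign across these lists, each of which had few measured genes.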
